A study of Mus musculus with 2 samples.

Results

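The levels of 9 astrocyte genes were followed across the regions of 2 coronal sections of the mouse brain. The genes were Slc1a2, Slc1a3, Glul, Aldoc, Aqp4, Gja1, Gfap, Apoe and Clu. They were picked by symbol, and not by a threshold on their levels, from the 32285 genes of the deposited matrices, and each symbol matched 1 row in each section. The sections had been captured with Visium, in which tissue is laid on an array of barcoded spots and the mRNA below each spot is counted by unique molecular identifiers (UMIs), short tags that let each captured molecule be counted a single time. Both sections held the dorsal hippocampus. A spot covers a small area that can hold several cells of different types, so every value below is a level in a patch of tissue and not in astrocytes alone. Fewer cells of a type and less RNA per cell cannot be told apart in such values.

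Both mice were males aged 3 to 4 months that carried the ArcCreERT2::eYFPflx alleles on a C57BL/6 background, so the control carried the same transgenes. In this line an inducible Cre under the Arc promoter marks cells active in a chosen window. By the label, the trained mouse learned to avoid a shock zone on a rotating arena (active place avoidance), and the untrained mouse walked on the same arena with the shock always off. Whether the study itself assigns these sections the other way round is unsettled, so every direction between the sections holds for the labels as deposited and would turn if they were swapped. Retention was tested 24 h after the last training with the shock off, and brains were collected 60 min after that test, snap frozen and cut at 10 µm. There was 1 section of 1 mouse per label, so differences between the sections had no replicate check and no test was made. Levels are given with 95% intervals that cover counting error only.

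Astrocytes tile the whole brain and send fine processes around synapses and endfeet onto blood vessels. They clear glutamate from the synaptic cleft, turn it into glutamine, buffer potassium and water and supply lipids to neurons. In the hippocampus their processes fill the neuropil, the dendrite and axon zones between the packed layers of neuronal cell bodies. In white matter, where fibrous astrocytes lie among myelinated axons, Gfap is the classical marker, whereas protoplasmic astrocytes of grey matter hold less of it.

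The stretches of genome around a start site of Gfap and of Slc1a3 are shown because results turn on these genes: Gfap had the widest range over regions, and Slc1a3 was past 1.5-fold between the sections in cell layers, neuropil and white matter. Gja1 was also past that fold in these parts, and its stretch, which lacks the motif marked below, is not shown. Each stretch runs from 250 bases before to 50 bases after the start site given by RefSeq on GRCm38.p6, on the strand of the gene. Capitals mark the letters TTCNNNGAA, a motif of STAT factors that reads the same on both strands.
Gfap promoter, chr11:102897151-102897450, minus strand: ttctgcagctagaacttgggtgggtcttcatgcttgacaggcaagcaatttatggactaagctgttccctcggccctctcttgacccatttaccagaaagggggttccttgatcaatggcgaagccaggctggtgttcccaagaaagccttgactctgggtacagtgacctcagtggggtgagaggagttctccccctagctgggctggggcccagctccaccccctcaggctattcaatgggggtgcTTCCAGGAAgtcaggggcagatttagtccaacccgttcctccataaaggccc
Slc1a3 promoter, chr15:8710758-8711057, minus strand: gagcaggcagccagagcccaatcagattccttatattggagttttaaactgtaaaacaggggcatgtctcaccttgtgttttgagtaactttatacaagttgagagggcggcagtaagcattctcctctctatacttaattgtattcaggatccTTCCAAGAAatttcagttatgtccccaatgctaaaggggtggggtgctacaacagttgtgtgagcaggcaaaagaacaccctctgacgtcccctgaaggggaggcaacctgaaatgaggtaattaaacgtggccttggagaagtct
In GENCODE the Gfap model runs from 102887336 to 102900912 on chromosome 11, so this start lies inside it, and the Slc1a3 model runs from 8634124 to 8710764 on chromosome 15, so its start lies just outside. Of the 9 genes 7 had an entry in the promoter table, with 10 entries in all, and Aqp4 and Clu did not. The motif was present 1 time each in the entries of Gfap and Slc1a3 and 2 times in 1 of the 2 entries of Aldoc, and not in those of Slc1a2, Glul, Gja1 and Apoe. The entry of Slc1a2 lies inside its gene model and away from the start in GENCODE. Among 32851 promoters of the same length 8.30% held the motif. TTGGC, a motif of NFI factors, was present on either strand in 5 of the 10 entries and in 46.7% of all promoters. A match is a description of the letters and not a shown binding site.

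The section labelled trained had 4152 spots and 29515831 UMIs, with a median of 5950.5 per spot. The section labelled untrained had 3738 spots and 59029131 UMIs, with a median of 13766.5 per spot. Because of this difference in depth, levels are given as CPM, the UMIs of a gene scaled to a total of 1000000 UMIs in the same spots. UMIs per spot are added in the comparisons within the hippocampus and of white matter. Spots of both sections were clustered together on genes that included neither the 9 members nor a list of 51 other astrocyte genes. Of 20 clusters 17 had at least 30 spots and on average at least 1000 UMIs per spot in each section, and these are called regions. Regions are named after a set of markers where their leading genes held some of it, and otherwise by their leading genes alone. They are ordered by CPM alone, and an order by UMIs per spot can differ, since their spots differ in depth.

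**Figure D1:**
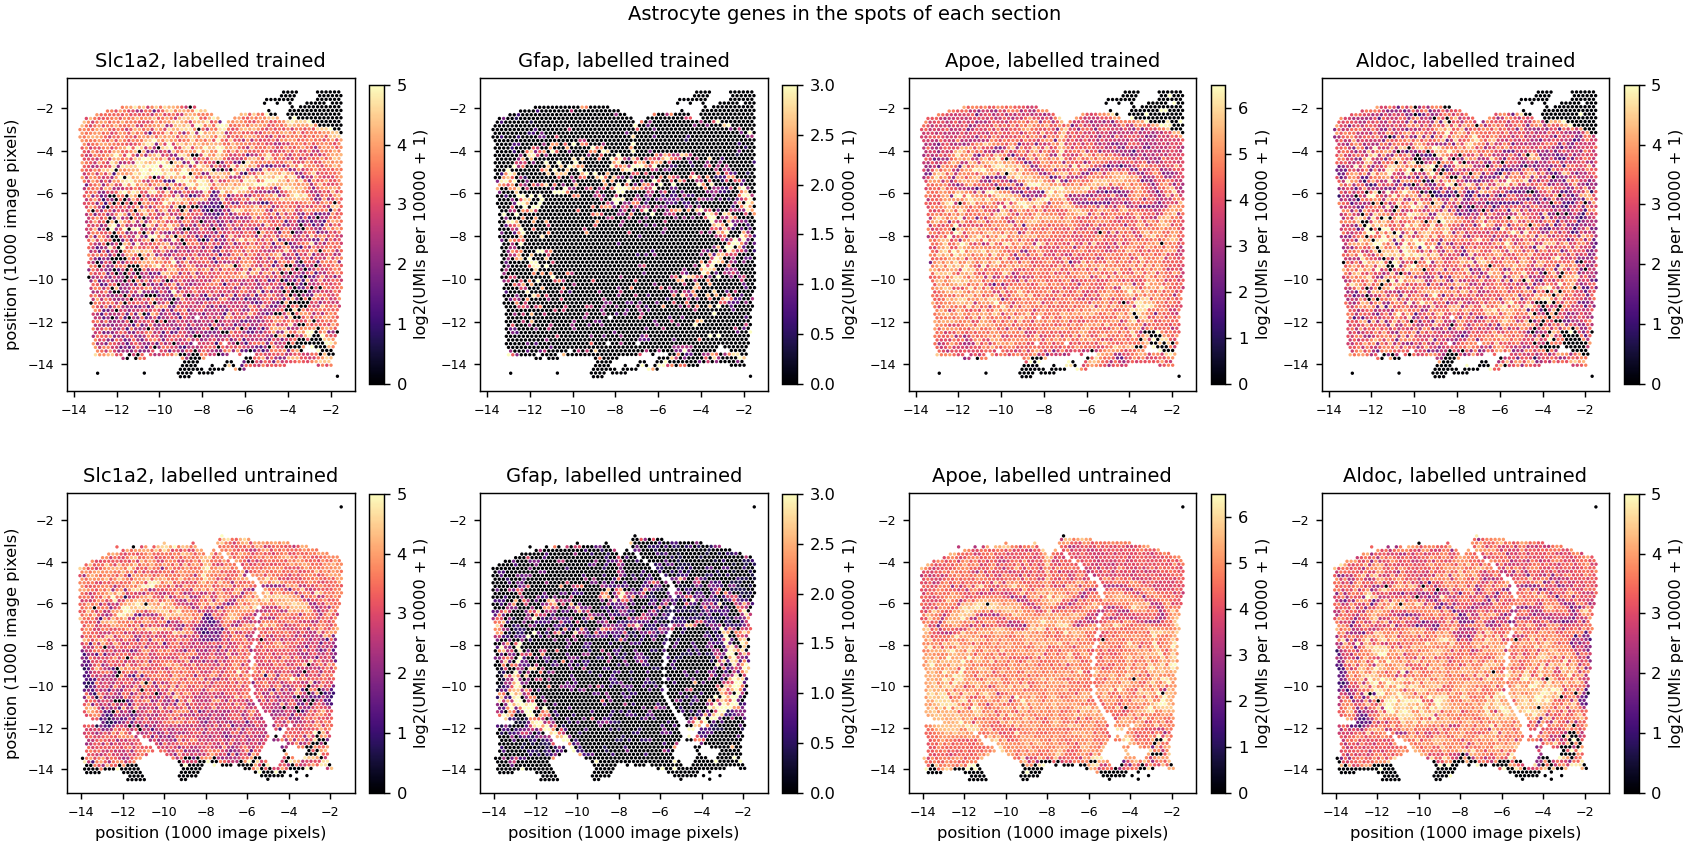
Each panel maps 1 gene in 1 section, with spots at their image position in 1000 pixels, and colour gives log2 of the UMIs of the gene scaled to 10000 UMIs per spot, plus 1, for Slc1a2, Gfap, Apoe and Aldoc in the sections labelled trained (top) and untrained (bottom). Gfap lies along the white matter tracts and is at 0 in most other spots, whereas Slc1a2 covers the grey matter and is brightest in the hippocampus between the cell layers.

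All members were measured in all regions, but how far their levels ranged differed widely between genes. From the lowest to the highest region the level of Gfap ranged 69.5-fold in the section labelled trained and 25.4-fold in the section labelled untrained. The first of these sizes is imprecise, since its lowest region, upper cortex, held 15 UMIs of Gfap (4.46 CPM, with an interval that reached 7.36, where that of the next region began at 5.38). For the other members this range lay between 3.24-fold and 7.54-fold in the section labelled trained and between 3.09-fold and 7.22-fold in the section labelled untrained. Levels of different genes are not set against each other, since capture differs between transcripts.

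The glutamate transporters came first. Slc1a2, which encodes GLT-1, the main glutamate uptake carrier of the forebrain, was at 881 CPM (interval 871 to 892) over the section labelled trained and at 837 CPM (830 to 845) over the section labelled untrained. By CPM it was highest in both sections in the cluster led by Ddn and Hopx, which covered hippocampal neuropil, with 2105 and 1784 CPM. Spots of this cluster held few UMIs, with medians of 2098 and 5795 against 5950.5 and 13766.5 over the sections, so its place per spot can differ. Slc1a2 was lowest in the habenula of the section labelled trained, at 399 CPM, and in the choroid plexus of the section labelled untrained, at 351 CPM. In both sections the meninges cluster and upper cortex came next, and the lower end was shared by the habenula, the choroid plexus and the hypothalamus. The meninges cluster was not meninges alone. In it 10 neuron markers summed to 5158 and 4265 CPM, against 6699 and 5451 CPM over the sections labelled trained and untrained.

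Slc1a3, which encodes GLAST, the glutamate carrier also strong in Bergmann glia and radial glia, was at 332 CPM (325 to 339) in the section labelled trained and 196 CPM (192 to 200) in the section labelled untrained. By CPM the Ddn and Hopx cluster was again the highest region, with 828 and 416 CPM, and its interval did not meet that of the next region in either section. Its place per spot can differ, since its spots held few UMIs. The choroid plexus was lowest, with 226 and 114 CPM. Between these ends 15 of 16 neighbouring regions in the order had overlapping intervals in the section labelled trained and 14 of 16 in the section labelled untrained, so most of the order is not resolved by counting.

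The metabolic enzymes were next. Glul, the glutamine synthetase that turns glutamate and ammonia into glutamine, was at 361 CPM and 415 CPM over the sections labelled trained and untrained. It was highest in the Ddn and Hopx cluster, at 880 CPM (788 to 979) and 944 CPM (856 to 1039), and lowest in the CA3 layer at 240 CPM and the choroid plexus at 274 CPM. Aldoc, the aldolase of brain glycolysis, was at 793 CPM over the section labelled trained and 1005 CPM over the section labelled untrained.

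The order of Aldoc was not that of Glul. The Ddn and Hopx cluster was highest in the section labelled trained with 1252 CPM, but its interval met that of the Klk6 and Gjb1 white matter cluster at 1184 CPM. The cluster led by Pmch and Nts was highest in the section labelled untrained with 1774 CPM, followed by the same white matter cluster at 1604 CPM, while the Ddn and Hopx cluster was in place 8 of 17 at 1231 CPM. Aldoc was lowest in the choroid plexus of both sections, at 387 and 430 CPM.

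The channel genes had fewer UMIs. Aqp4, the water channel of astrocyte endfeet, was at 55.3 CPM (52.7 to 58.1) and 57.5 CPM (55.6 to 59.5) in the sections labelled trained and untrained. It was highest in the habenula of both sections, at 185 CPM (144 to 233) and 168 CPM (147 to 190), where Slc1a2 was at or near its lowest. Ependymal markers summed to 399 and 506 CPM there, against 105 and 202 CPM over the sections, and their part was not tested. All 16 neighbouring pairs in the order of Aqp4 had overlapping intervals in each section. Its lowest regions were the CA3 layer at 24.5 CPM in the section labelled trained and upper cortex at 23.2 CPM in the section labelled untrained.

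Gja1, which encodes connexin 43, the gap junction protein that couples astrocytes, was at 177 CPM and 107 CPM over the sections labelled trained and untrained. Its highest region was the Ddn and Hopx cluster in both, at 361 CPM (304 to 427) and 206 CPM (165 to 252). Those intervals met the ones of the next region in both sections. It was lowest in upper cortex of the section labelled trained, at 112 CPM, and in the CA3 layer of the section labelled untrained, at 57.6 CPM.

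Gfap, the intermediate filament protein of fibrous and reactive astrocytes, was at 55.5 CPM (52.8 to 58.2) in the section labelled trained and 66.8 CPM (64.8 to 69.0) in the section labelled untrained. Its highest level in the section labelled trained was in the Enpp6 and Mal white matter cluster at 310 CPM (282 to 340), and the next region did not reach that interval. Its highest level in the section labelled untrained was in the meninges cluster at 352 CPM, with the Enpp6 and Mal white matter cluster at 293 CPM. Upper cortex was lowest in both, at 4.46 and 13.9 CPM.

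The secreted lipid carriers had their own order. Apoe, the main apolipoprotein of the brain, was at 1981 CPM over the section labelled trained and 2606 CPM over the section labelled untrained. It was highest in the Ddn and Hopx cluster of the section labelled trained, at 4101 CPM, and in the meninges cluster of the section labelled untrained, at 4700 CPM. The interval of the latter (4609 to 4793) met that of the choroid plexus (4486 to 4611). The CA3 layer held the lowest level in both, with 1111 and 1520 CPM. In the section labelled trained its interval (1054 to 1170) met that of upper cortex (1165 to 1239).

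Clu, the chaperone clusterin, was at 674 CPM over the section labelled trained and 1015 CPM over the section labelled untrained. It was highest in the choroid plexus cluster led by Ttr and Calml4, at 1509 and 2368 CPM. In the section labelled trained that interval (1409 to 1614) met the one of the Enpp6 and Mal white matter cluster (1306 to 1427). In the choroid plexus cluster the choroid plexus markers summed to 163069 and 189613 CPM, and in the meninges cluster the meninges markers summed to 10218 and 13253 CPM. Cells of those kinds also hold Apoe and Clu, and their part in these levels was not tested.

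**Figure D2:**
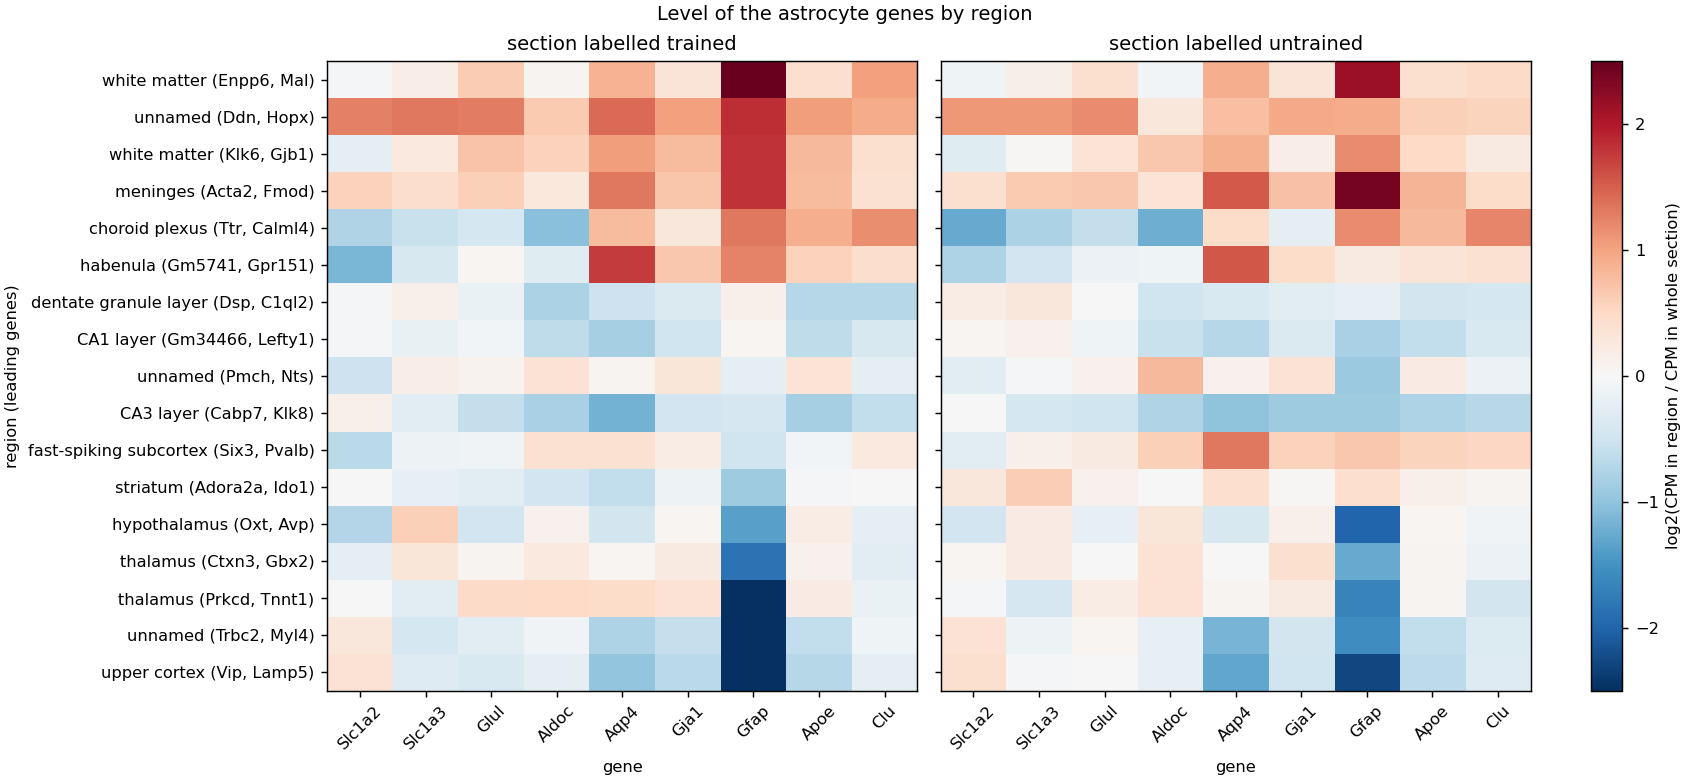
Each row is a region and each column a member, and colour gives the log2 ratio of the CPM in the region to the CPM over the section, with 1 panel per section and colours capped at the ends of the scale. By CPM the Ddn and Hopx row is above the section for all 9 members in both panels, while the Enpp6 and Mal white matter row stands out for Gfap, at 310 and 293 CPM. Spots of the Ddn and Hopx cluster held few UMIs (medians of 2098 and 5795), and levels per spot are not drawn.

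The hippocampal comparison set the neuropil against the cell layers of the same section. Cell layers were the spots of the CA1, CA3 and dentate granule clusters (412 spots in the section labelled trained and 481 in the section labelled untrained), and neuropil was every other spot inside the hippocampal outline outside white matter (163 and 77 spots). The split depends on the clustering. The CA1 cluster held 173 and 191 spots here, but the CA1 cluster counted as layer held 56 and 58 at Leiden resolutions 1.0 and 2.0. There a cluster led by Ddn together with CA1 markers was counted as neuropil, so cell layers here can include adjoining neuropil. Ddn, whose mRNA is carried into dendrites, led the cluster of the neuropil. All 9 members had a higher share of the UMIs in neuropil than in cell layers in both sections, by at least 1.5-fold. Aldoc of the section labelled untrained fell short of that fold with spots thinned to 1000 UMIs (log2 ratio 0.50). Of all genes with at least 200 UMIs in the compared spots, 5.44% of 3827 were that much higher in the section labelled trained and 6.26% of 7092 in the section labelled untrained. Aqp4 of the section labelled trained, with 187 UMIs, was below that minimum. The median log2 ratio of the members was 1.46 and 1.34, against -0.60 and -0.35 for all genes.

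The glutamate carriers are given first. Slc1a2 stood at 2119 CPM in neuropil and 886 CPM in cell layers of the section labelled trained, a log2 ratio of 1.26 (interval 1.15 to 1.37). It stood in the section labelled untrained at 1731 and 889 CPM, a log2 ratio of 0.96 (0.87 to 1.05). The carrier was thus at nearly the same level in the cell layers of both sections.

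Slc1a3 stood at 798 and 307 CPM in neuropil and cell layers of the section labelled trained (log2 ratio 1.38) and at 424 and 200 CPM in the section labelled untrained (1.09). Glul stood at 908 and 303 CPM (1.59), and at 959 and 365 CPM (1.40) in the section labelled untrained. Aldoc stood at 1185 and 474 CPM (1.32), and at 1262 and 667 CPM (0.92). Among the carriers and enzymes Glul had the largest ratio in both sections.

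Aqp4 and Gfap had the largest ratios by pooled CPM, an order that did not hold in all alternatives. Over these Aqp4 ranged from 1.61 to 2.93 and from 1.10 to 2.48 in the sections labelled trained and untrained, and Gfap from 1.09, with layers taken by a marker score, to 2.51 and from 1.28 to 2.39. Aqp4 was at 150 and 31.5 CPM in neuropil and cell layers of the section labelled trained, a log2 ratio of 2.26 (1.80 to 2.71). Its levels in the section labelled untrained were 120 and 36.5 CPM, a log2 ratio of 1.73 (1.34 to 2.08). Gfap was at 241 and 52.8 CPM, a log2 ratio of 2.20 (1.83 to 2.54), in the section labelled trained. Its levels in the section labelled untrained were 169 and 44.8 CPM, a log2 ratio of 1.92 (1.60 to 2.22). These levels rest on few molecules, since the neuropil held 63 and 76 UMIs of Aqp4 and 101 and 107 UMIs of Gfap.

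Gja1 was at 354 and 129 CPM in the section labelled trained (log2 ratio 1.46) and at 221 and 76.7 CPM in the section labelled untrained (1.53, or 2.57 for neuropil spots that touch no layer spot). Apoe was at 4209 and 1199 CPM, a log2 ratio of 1.81 (1.73 to 1.89), and at 4318 and 1709 CPM, a log2 ratio of 1.34 (1.28 to 1.40). Clu was at 1240 and 452 CPM (1.46), and at 1529 and 717 CPM (1.09). The 9 ratios were above 0 on the left and on the right of the image in both sections. The split into neuropil and cell layers was not alike on left and right. In the section labelled trained the left held 129 neuropil and 158 layer spots and the right 34 and 254. In the section labelled untrained these were 60 and 232 on the left and 17 and 249 on the right. The left had fewer UMIs per spot, with medians of 4991 against 7072 and of 11322 against 16610. The part of depth in the split was not tested.

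Counted per spot the picture differed. Neuropil spots held fewer UMIs, with a median of 2292 against 7432 in cell layers of the section labelled trained and 6598 against 18356 in the section labelled untrained. Slc1a2 was at 5.44 UMIs per spot in neuropil and 8.47 in cell layers of the section labelled trained (log2 ratio -0.64), and at 14.2 and 19.7 in the section labelled untrained (-0.47). Per spot 2 of 9 members were above 0 in the section labelled trained (Aqp4 0.37 and Gfap 0.30) and 3 of 9 in the section labelled untrained (Gfap 0.49, Aqp4 0.30 and Gja1 0.10), and none reached 1.5-fold. The median of the members was -0.44 and -0.09 per spot, against -2.49 and -1.78 for all genes. The higher CPM of the members in neuropil thus came with 0.643 to 1.29 times the UMIs per spot of the cell layers in the section labelled trained and 0.702 to 1.40 times in the section labelled untrained.

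Other cell types moved with this comparison. The 10 neuron markers summed to 3552 CPM in neuropil and 8776 CPM in cell layers of the section labelled trained and to 3780 and 7558 CPM in the section labelled untrained. The summed oligodendrocyte markers had log2 ratios of 1.36 and 1.47 in neuropil against cell layers and those of microglia 1.13 and 0.98. Endothelial markers had summed log2 ratios of 0.61 and 0.71, ependymal markers 0.71 and 0.82, choroid plexus markers 1.83 and 1.07 and meninges markers 2.07 and 2.09, the latter mainly Ptgds. Mitochondrially encoded genes made up 27.5% and 27.4% of neuropil UMIs and 9.98% and 15.7% of those in cell layers. With those genes left out of the total the ratios of the members were higher, from 1.57 to 2.58 in the section labelled trained and from 1.14 to 2.13 in the section labelled untrained. The part of the other cell types in the result was not tested.

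**Figure D3:**
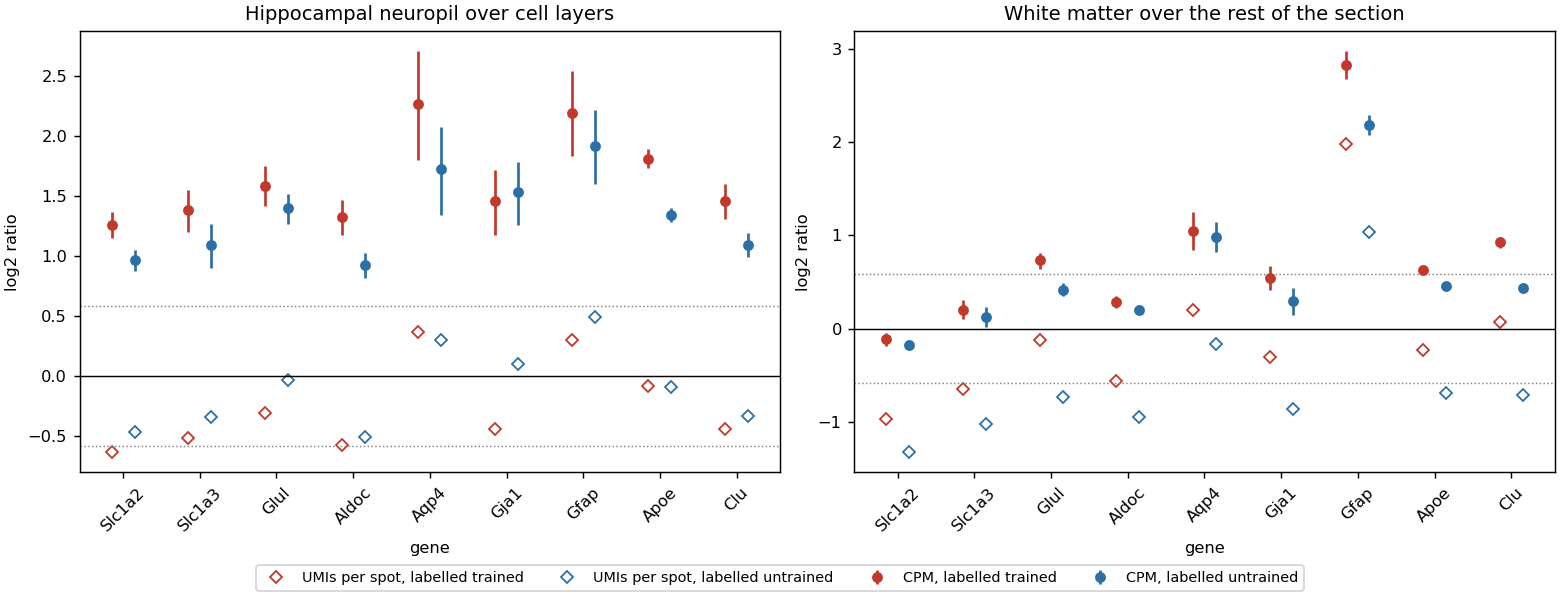
Points give the log2 ratio of each member in neuropil over cell layers (left) and in white matter over the rest of the section (right), filled for CPM with 95% counting intervals as bars and open for UMIs per spot, with dotted lines at 1.5-fold and colour for the label. By CPM all neuropil ratios lie at or above 0.92, and Slc1a2 lies just below 0 in white matter in both sections (-0.11 and -0.18).

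Of 51 other astrocyte genes 29 had enough UMIs for this comparison in the section labelled trained and 48 in the section labelled untrained. Of these, 28 and 44 were at least 1.5-fold higher in neuropil, with medians of 1.34 and 1.11. Among the highest in both sections were Id4, an inhibitor of basic helix-loop-helix factors (log2 ratio 1.51 and 1.68), the metallothionein Mt2 (1.69 and 1.36), the lipid phosphatase Plpp3 (1.34 and 1.35) and the claudin Cldn10 (1.26 and 1.28). At the low end were the transcription factor Lhx2 (-0.18 and 0.41), the brain metallothionein Mt3 (0.60 and 0.26), Sparcl1 (0.91 and 0.56), Atp1b2 (0.82 and 0.75) and the bicarbonate carrier Slc4a4 (1.06 and 0.97). Among them Lhx2 alone was below 0, in the section labelled trained.

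The change along the depth of the hippocampus was followed in steps of 1 spot, from the adjoining white matter (step 0) across CA1 towards the dentate granule layer (up to step 6). This profile was chosen after values had been seen. All 9 members had their lowest CPM at step 2 in both sections, on the left and on the right. The share of all genes with their lowest CPM there was not counted, so this is not shown to be particular to the members. At that step Wfs1, a marker of CA1 pyramidal neurons, was highest with 400 and 511 CPM, and a spot held the most UMIs, with means of 12959 and 27509. From step 2 to step 5 the members rose by 3.74-fold to 7.29-fold in the section labelled trained and by 2.67-fold to 6.78-fold in the section labelled untrained.

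The profile of Slc1a2 had its low point at step 2 and rose beyond it. It was in the section labelled trained at 1377 CPM at step 0, 1354 at step 1, 498 at step 2, 1221 at step 3, 2062 at step 4, 2017 at step 5 and 2443 at step 6. In the section labelled untrained the same steps were at 1102, 1184, 484, 1039, 1550, 1955 and 1913 CPM. Slc1a2 was thus higher at steps 4 to 6 than in the white matter at step 0.

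Gfap had a high level at both ends. Its levels from step 0 to step 6 were 247, 118, 39.9, 57.0, 210, 170 and 209 CPM in the section labelled trained and 141, 62.0, 19.8, 40.6, 83.8, 134 and 153 CPM in the section labelled untrained. In UMIs per spot 1 of 9 members was lowest at step 2 in each section, and from step 2 to step 5 the members changed by 0.87-fold to 1.70-fold in the section labelled trained and by 0.85-fold to 2.17-fold in the section labelled untrained. Members that rose per spot by over 1.5-fold were Glul in both sections (1.70 and 1.57) and, in the section labelled untrained, Gfap (2.17) and Aqp4 (1.69). The fewest spots at a step were 26 and 15, both at step 6. At step 2 the interval of Aqp4 met that of step 1, and the interval of Gfap met that of step 3, in both sections.

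**Figure D4:**
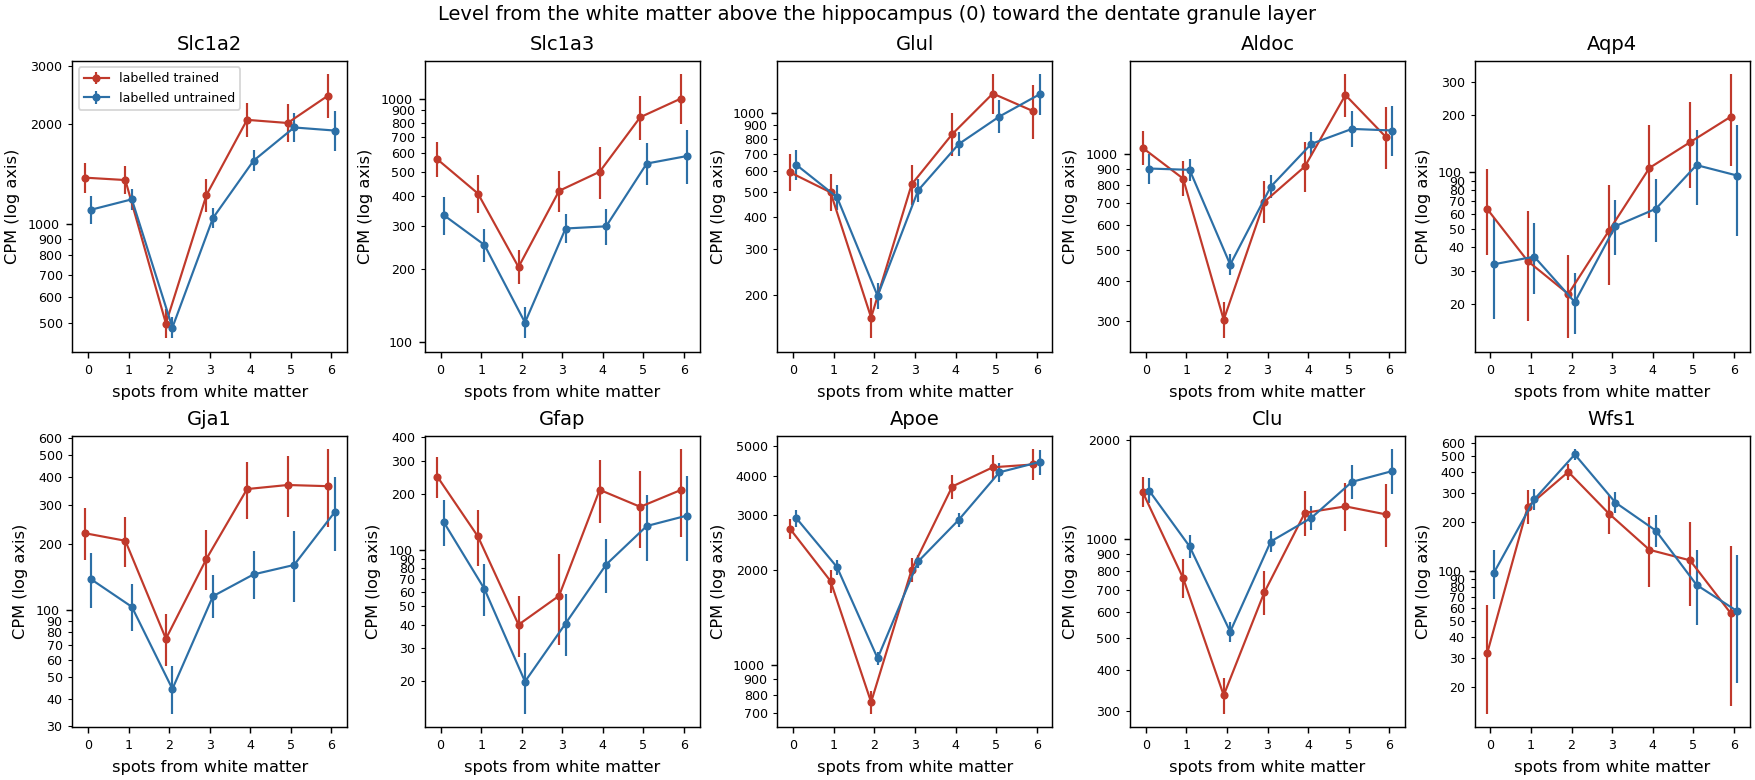
Lines give the CPM (log axis) of each member and of Wfs1 by spots from the white matter (0) towards the dentate granule layer (6), with 95% counting intervals as bars and colour for the label. All 9 members are lowest at step 2, where Slc1a2 was at 498 and 484 CPM and Wfs1 was highest.

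White matter was taken as the spots of the clusters led by Enpp6 and Mal and by Klk6 and Gjb1 (502 and 439 spots) and was set against the rest of the section. Gfap was the member that differed most. It was at 270 CPM in white matter and 38.2 CPM elsewhere in the section labelled trained, a log2 ratio of 2.83, and at 251 and 55.3 CPM in the section labelled untrained, a log2 ratio of 2.19. Per spot the Gfap log2 ratio was 1.97 and 1.04. At least 1.5-fold higher were 5 of 9 members in the section labelled trained, where 13.2% of 10565 genes were, and 2 of 9 in the section labelled untrained, where 10.3% of 12077 genes were.

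Aqp4 was the other member past that fold in both sections, though with thinning it fell short in the section labelled untrained (0.56). It was at 106 and 51.2 CPM in white matter and elsewhere of the section labelled trained (log2 ratio 1.05) and at 107 and 54.4 CPM in the section labelled untrained (0.98). Per spot its log2 ratio was 0.19 and -0.17. Its higher share of white matter UMIs thus came with a like number of molecules per spot.

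Clu, Glul and Apoe passed the fold in the section labelled trained, at log2 ratios of 0.93, 0.73 and 0.63, and fell short of it in the section labelled untrained, at 0.44, 0.42 and 0.46. For Glul and Apoe this depended on the setting. In the section labelled trained they fell short with equal weight of spots (0.42 and 0.40), with thinning (0.45 and 0.36), Glul also with white matter taken by summed oligodendrocyte markers (0.581) and Apoe with spots that had white-matter neighbours only (0.54). As UMIs per spot none of the 3 passed (0.07, -0.12 and -0.23). In the section labelled untrained Apoe passed with white matter taken by summed oligodendrocyte markers (0.63). The threshold of 0.58 lay just below Apoe and just above Gja1, at 0.55, in the section labelled trained. Whether the sections differed in this was not tested.

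The remaining members were close to the rest of the section. Aldoc had log2 ratios of 0.29 and 0.20, the latter turning to -0.03 with spots thinned to 1000 UMIs. Slc1a3 had 0.20 and 0.12, which turned to -0.02 in both sections with the same thinning. Slc1a2 was at 819 CPM in white matter and 886 CPM elsewhere in the section labelled trained (-0.11) and at 746 and 843 CPM in the section labelled untrained (-0.18). It was the member with the lowest ratio in both. The median over the members was 0.63 and 0.42, against -0.23 and -0.22 over all genes.

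The 2 white matter clusters held different levels. Gfap was at 310 and 293 CPM in the Enpp6 and Mal cluster of the sections labelled trained and untrained and at 195 and 152 CPM in the Klk6 and Gjb1 cluster. Clu was also higher in the Enpp6 and Mal cluster, at 1365 and 1410 CPM, than in the Klk6 and Gjb1 cluster, at 887 and 1191 CPM. Aldoc was the other way round, at 829 and 953 CPM in the former and 1184 and 1604 CPM in the latter. For these genes the direction was the same in both sections. It turned for Aqp4, Slc1a3, Glul and Gja1. Gja1 was at 222 CPM in the Enpp6 and Mal cluster and 305 CPM in the Klk6 and Gjb1 cluster of the section labelled trained. In the section labelled untrained it was at 133 and 119 CPM.

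The white matter clusters were chosen by oligodendrocyte markers, all 12 of which were higher there by that choice. All 12 microglia markers were also at least 1.5-fold higher in both sections, with summed log2 ratios of 1.35 and 1.18. Neuron markers summed to 2496 CPM in white matter and 7038 CPM elsewhere of the section labelled trained and to 2430 and 5639 CPM in the section labelled untrained. Meninges markers, mainly Ptgds, summed to 5128 and 1391 CPM and to 5423 and 1923 CPM. The sum does not hold for the set, since 1 of its genes was at least 1.5-fold higher in each section. By the same fold 1 was lower in the section labelled trained and 3 in the section labelled untrained. Choroid plexus markers were lower in white matter, at 1880 against 5706 CPM and at 5347 against 19141 CPM in the sections labelled trained and untrained. The part of these cells in the levels of the members was not tested.

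Of the 51 other astrocyte genes, all of which had enough UMIs, 18 and 12 were at least 1.5-fold higher in white matter, with medians of 0.38 and 0.22. The highest in both sections were the glycine transporter Slc6a9 (1.89 and 1.57), the calcium-binding protein S100b (1.44 and 1.49) and the adhesion protein Hepacam (1.78 and 1.44). The lowest were the amino acid exchanger Slc7a10 (-0.36 and -0.63), Lhx2 (-0.31 and -0.89) and the potassium channel Kcnj16 (-0.25 and -0.33). S100b and Hepacam are known from oligodendrocytes too.

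The section labelled trained was then set against the section labelled untrained. Over the whole section Slc1a3 was at 332 against 196 CPM, a log2 ratio of 0.76 (interval 0.72 to 0.80), and Gja1 at 177 against 107 CPM, a log2 ratio of 0.74 (0.68 to 0.79). Clu was at 674 against 1015 CPM, a log2 ratio of -0.59 (-0.62 to -0.57), an interval that crosses the threshold. Clu fell short of it with equal weight of spots (-0.47), with thinning (-0.49) and on the right of the image (-0.54). Over the whole section the choroid plexus markers summed to 5418 against 18331 CPM, and the regions were cut in different proportions, with 56 against 143 spots in the choroid plexus cluster where Clu was highest, 217 against 32 in striatum and 12 against 190 in the cluster led by Cartpt and Vgll3. The part of these differences in the ratios was not tested. These 3 of 9 were past 1.5-fold, as were 12.8% of 11460 genes with at least 400 UMIs, 8.06% higher and 4.75% lower. Slc1a3 stood at the 96.3 percentile of all genes and Gja1 at the 95.8 percentile, where the median of all genes was 0.07.

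The other members differed less. The log2 ratio was 0.07 for Slc1a2, -0.06 for Aqp4, -0.20 for Glul, -0.27 for Gfap, -0.34 for Aldoc and -0.40 for Apoe. The list of other astrocyte genes had 2 of 51 higher and 5 of 51 lower by 1.5-fold, with a median of -0.21. Over the alternatives Gfap ranged from -0.43 to 0.12 and Aqp4 from -0.19 to 0.08, so neither kept its sign. The 9 members thus did not lie on 1 side, and the glutamate carriers Slc1a3 and Slc1a2 did not differ alike.

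Across regions the directions of the 3 genes past the fold were largely kept. Clu was below 0 in 17 of 17 regions, with ratios from -0.86 to -0.05. Gja1 was above 0 in 11 of 11 regions that had enough UMIs, from 0.55 to 1.28, and Slc1a3 in 14 of 15, from -0.07 to 1.15. This was not particular to genes past the fold, since Aldoc and Apoe were each below 0 in 16 of 17 regions. Regions of a section share its library and depth, so they are not replicates of the label. On the left of the image Slc1a3 had a log2 ratio of 0.91 and on the right 0.64.

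**Figure D5:**
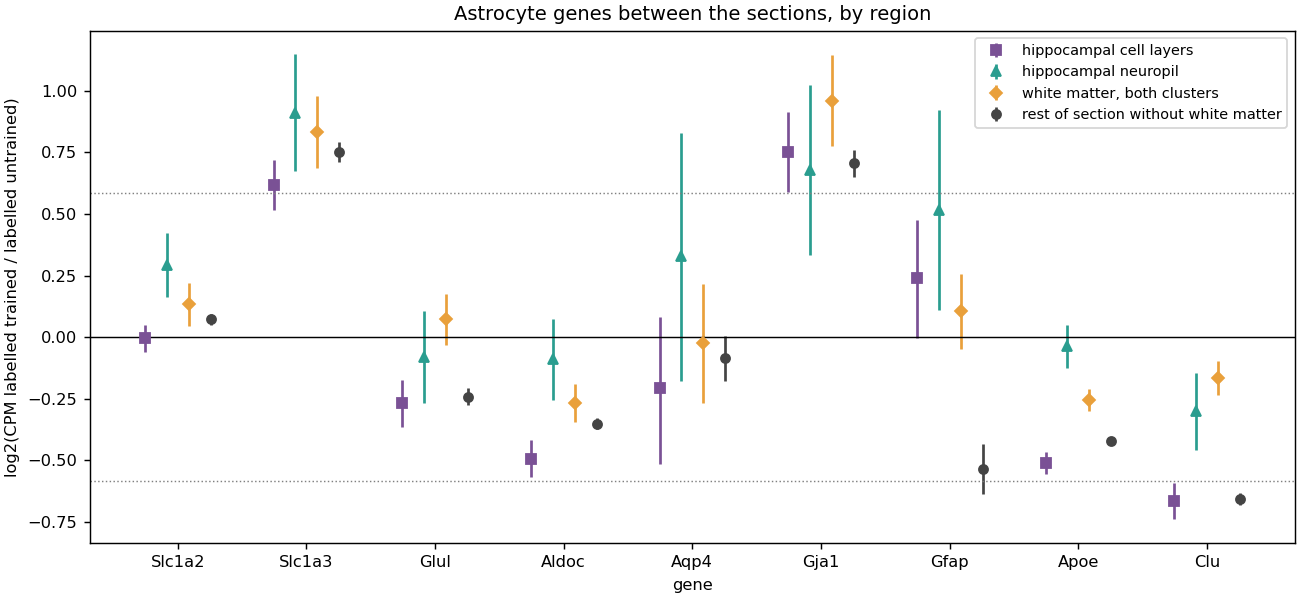
Each point is the log2 ratio of the CPM of a member, labelled trained over labelled untrained, in hippocampal cell layers, hippocampal neuropil, white matter or all spots outside white matter, with bars for the 95% counting interval and dotted lines at 1.5-fold. Slc1a3 and Gja1 lie above the upper line in all 4, and Clu lies below the lower line in the cell layers (-0.66) and in the spots outside white matter.

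Within the hippocampus the cell layers had 3 of 9 members past 1.5-fold, with a background of 14.0% of 5554 genes. These were Gja1 (0.75), Slc1a3 (0.62) and Clu (-0.66). Each fell short of the fold in some alternative: Gja1 on the left alone (0.55), Slc1a3 without mitochondrial genes (0.52) and on the right alone (0.58), and Clu with equal weight of spots (-0.53) and thinning (-0.58). In the same layers the choroid plexus markers, mainly Ttr, summed to 778 CPM in the section labelled trained and 4070 CPM in the section labelled untrained, and their part in these ratios was not tested. In the neuropil Gfap, Aqp4 and Gja1 were below the minimum of 400 UMIs. Of the 6 members above it 1 passed, Slc1a3 (0.91, interval 0.68 to 1.15), with a background of 19.6% of 301 genes. Gja1 was also past the fold (0.68, interval 0.34 to 1.02), but not with equal weight of spots (0.55) or on the left alone (0.46).

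In white matter the members past the fold were Gja1 (0.96) and Slc1a3 (0.83), 2 of 9 against 10.9% of 2164 genes. Gfap was at 270 and 251 CPM, a log2 ratio of 0.10 (interval -0.05 to 0.26), and Clu at -0.16. The white matter ratios of Gja1 and Slc1a3 stayed past the fold in the alternatives run. The spread between mice of the same label is unknown for all of these.

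Likeness between genes was described by Pearson's r of log2(CPM + 1) over the 17 regions, in each section by itself. Regions of a section share a library and border each other, so r is a description without a test. Over the 36 pairs of members the mean r was 0.49 in the section labelled trained and 0.42 in the section labelled untrained, from -0.08 to 0.94 and from -0.36 to 0.89. The members therefore did not share 1 map.

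Aqp4, Gja1 and Apoe were the most alike in the section labelled trained, and Aqp4 and Apoe followed by Apoe and Clu in the section labelled untrained. Gja1 and Apoe had an r of 0.94 and 0.80, Aqp4 and Gja1 of 0.93 and 0.81, and Aqp4 and Apoe of 0.89 and 0.89. Apoe and Clu had an r of 0.80 and 0.87. Slc1a2 had an r of -0.01 and -0.07 to Gfap and of 0.02 and -0.36 to Clu, but of 0.47 and 0.75 to Slc1a3 and of 0.48 and 0.69 to Glul.

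Of 2585 genes compared, the most alike genes differed by member too. For Gfap they were Mt1 (r of 0.83 and 0.82), Mt2 and Rplp0, for Aqp4 they were Apoe, Id3 and Mt1, and for Apoe they were Gng5 (0.91 and 0.89), Id3 and Mt1. For Aldoc they were Ttyh1 (0.92 and 0.90), Fgfr3 and Glud1, for Gja1 they were Gpr37l1 (0.89 and 0.89) and Plpp3 among others, and for Glul they were Gstm5, S1pr1 and Plpp3. For Clu they were Gng5 (0.91 and 0.93), Fxyd1 and Cd63. For Slc1a3 they were Rps28, Gstm5 and mt-Nd4l. For Slc1a2 they were Mgll (0.79 and 0.84), Camk2a, a kinase whose mRNA is carried into dendrites, and mt-Nd5.

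The deposited tables also hold Moran's I, a score of spatial clustering that is high where adjoining spots resemble each other. Slc1a2 had 0.336 in the section labelled trained and 0.324 in the section labelled untrained, and Apoe 0.327 and 0.338. Aldoc had 0.259 and 0.349, Clu 0.230 and 0.318, Gfap 0.221 and 0.370, Glul 0.137 and 0.224 and Slc1a3 0.162 and 0.127. Gja1 had 0.080 and 0.099 and Aqp4 0.070 and 0.161. In the section labelled untrained Gfap was the highest of the members with 3945 UMIs, whereas Slc1a2 had 49428. Of the 9 members 7 had the higher score in the deeper section. The share of all genes with this direction was not counted, so it is not shown to be a trait of the members. For Apoe and Gja1 among the 7 a larger share of genes scored above them there (1.07% against 0.858% and 11.7% against 9.65%). For the rest of the 7 a smaller share did.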

How the data were processed

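Spot counts were taken from the deposited matrices, in which the authors had counted UMIs per gene and spot with Space Ranger 2.0.0 against mm10 after trimming reads with TrimGalore. Moran's I is a score that the authors computed and deposited, and the other columns of those tables were not used. Samples were grouped by their labels, 1 section each. The members and lists were chosen with earlier results of these data known.

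Spots with at least 500 UMIs (308 fell below) were clustered jointly on 935 genes without members, other astrocyte genes, immediate early genes, and mitochondrial, ribosomal and haemoglobin genes, by 30 principal components, 15 neighbours and Leiden resolution 1.5. Thresholds for naming regions and the outline of the hippocampus were set after maps had been seen, and the cluster led by Ddn has no marker set. Within each region UMIs were summed over spots and expressed as CPM, with exact Poisson intervals, or exact conditional binomial intervals for ratios, at 95%. A pseudocount of 0.5 UMI was used in ratios within and between sections. Named genes were all members, the extremes of the other astrocyte list by lower or higher value of both sections, Agt and Mfge8, and the 3 most alike genes. Some genes that met this rule are not reported here. Promoters came from RefSeq. The calculation of ratios and intervals was checked on simulated counts with known folds. Alternatives were equal weight of spots, mitochondrial genes left out, other Leiden resolutions, thinning to 1000 UMIs, each side alone, other definitions of layers and white matter, and a pseudocount of 5. The tools were scanpy 1.11.5, leidenalg 0.10.2, igraph 0.11.9, scikit-learn 1.9.0, scipy 1.17.1, numpy 2.4.6, pandas 2.3.3 and matplotlib 3.10.9 under Python 3.11.15.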

Additional observations from a re-analysis of the deposited data

Results flagged for a closer look

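Gfap differed in opposite directions between the sections in the hippocampal neuropil and in all spots outside white matter, which include the neuropil. On the log2 scale, trained over untrained by label, the ratio was 0.52 (interval 0.11 to 0.92) in neuropil, with 101 and 107 UMIs, which is under the minimum of 400. It was -0.54 in the spots outside white matter. Those spots pooled regions in different proportions, with 217 against 32 spots in striatum, 56 against 143 in choroid plexus (the Ttr and Calml4 cluster) and 12 against 190 in the Cartpt and Vgll3 cluster. The part of this in the ratio was not tested. Single regions differed too. Of the 3 regions with enough UMIs of Gfap 1 was above 0 and 2 below, from -0.85 in the meninges cluster (interval -1.08 to -0.63) to 0.08. Over the whole section the ratio of Gfap ranged from -0.43 to 0.12 over the alternatives. The difference between these ratios was not tested, since there was 1 section per label.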

How the results depend on the processing

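No paired analysis was possible because the labels share 1 replicate number and there was 1 section per label. In UMIs per spot, chosen after seeing the data, 0 and 0 members were 1.5-fold higher in neuropil (sections labelled trained and untrained) and 1 and 1 in white matter. Log2 ratios that changed sign per spot in neuropil were Slc1a2 -0.64, Slc1a3 -0.52, Aldoc -0.57, Glul -0.31, Gja1 -0.44, Apoe -0.084 and Clu -0.44 in the section labelled trained and Slc1a2 -0.47, Slc1a3 -0.34, Aldoc -0.51, Glul -0.034, Apoe -0.093 and Clu -0.34 in the section labelled untrained. In white matter, among members past the fold by CPM, they were Glul -0.12 and Apoe -0.23 in the section labelled trained and Aqp4 -0.17 in the section labelled untrained, and over all members 3 and 1 of 9 were above 0 per spot, against 8 and 8 by CPM. The white matter count of the section labelled trained was 3 with equal weight of spots and 3 with thinning, and that of the section labelled untrained was 1 with thinning. Between the sections, where 2 of 9 members passed in neuropil regardless of the UMI minimum, 1 passed with equal weight and 1 on the left side alone. The mean r of the member pairs was 0.55 and 0.41 on CPM, 0.51 and 0.50 at Leiden resolution 1.0 and 0.61 and 0.54 at 2.0. The cause of these changes was not tested. Under the alternatives that kept CPM none of the ratios of neuropil over cell layers changed sign. Sections of 1 mouse, spots that mix cells and neuropil of few UMIs limit what these levels can show.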

Other observations

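Agt and Mfge8, astrocyte genes outside the 9, had unlike maps. Agt, the angiotensinogen precursor, was at 6.25 and 17.2 CPM in upper cortex, 205 and 256 CPM in the hypothalamus and 205 and 289 CPM in the Klk6 and Gjb1 white matter cluster of the sections labelled trained and untrained. In the Ddn and Hopx cluster, where Slc1a2, Slc1a3, Glul and Gja1 were highest by CPM, Agt was at 49.8 and 51.9 CPM. Mfge8, a secreted bridge for the uptake of debris, was at 191 and 172 CPM in that cluster and at 86.0 and 82.2 CPM in the habenula, where Agt was at 180 and 181 CPM and Aqp4 was highest.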
